A study of Mus musculus with 12 samples.

Results

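The livers compared here came from male mice of the M line, 6 weeks old, whose hepatocytes carry an inducible gene for the wild-type (M) form of human alpha1-antitrypsin. In the 3 mice of the M off group the gene was kept silent with doxycycline at 40 ug/mL in the drinking water from conception. The 3 mice of the M on group received none and expressed it. The groups were taken from the sample titles, and 6 of the study's 12 arrays belong to them. The other 6 came from male mice of the same age that carry the mutant Z form, again with doxycycline (Z off, n = 3) or without (Z on, n = 3). The 3 arrays of a group are biological replicates per the labels, which do not say how the animals were housed or when they were killed, so p-values measure the spread between these arrays. Transgene expression and the absence of doxycycline cannot be told apart in either line, because the expressing mice are also the undosed ones. No probe set of the annotation is assigned to the human gene, and its level was not analysed here.

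Alpha1-antitrypsin is a protease inhibitor that hepatocytes secrete in large amounts. The M form folds and leaves the endoplasmic reticulum readily, and the Z form is retained there, so M mice serve as the control for the secretory load that the transgene places on the cell. The liver is also the organ in which feeding, insulin and sterol supply set the transcription of lipid enzymes. Sterol-regulated transcription factors of the SREBP family act on cholesterol and fatty acid synthesis genes, and insulin represses FoxO targets such as Igfbp1.

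Values are linear array signals, with 1 value per probe set (a group of short probes for one transcript). Signals reached from near 0 to 37251.7, array medians lay between 38.8 and 47.2, and Pearson correlations of the M arrays were 0.951 to 0.981 within groups and 0.952 to 0.976 between them, ranges that largely overlap. M on replicate 2 stood apart in the array's control probe set for the 3′ end of actin, with a signal of 1273 against 4188 to 6369.8 on the other M arrays. The ratio of 3′ to 5′ actin signals, a measure of RNA integrity, was 2.72 to 3.89 in M off and 3.09 to 4.38 in M on. Hepatocyte markers were the brightest transcripts in both groups, with a summed signal over 11 of them of 137213 to 187501 in M off and 134599 to 214143.5 in M on. The mouse alpha1-antitrypsin paralogs Serpina1b and Serpina1c, which are nearly identical in sequence and may share signal, differed by 0.05 ± 0.23 and -0.23 ± 0.18 (log2 difference ± SE, M on minus M off), and albumin (Alb) by -0.05 ± 0.27.

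The differences between M on and M off livers were small for most genes. No probe set of 22626 passed the test at an adjusted p under 0.05 (limma, Benjamini-Hochberg over all probe sets; 0% called, smallest adjusted p = 0.0724). At an unadjusted p under 0.05 there were 1172, or 5.18%, of which 624 (2.76%) were higher and 548 (2.42%) lower in M on. Most probe sets are dim and noisy. The calls between M on and M off that follow therefore rest on the 7064 probe sets with a mean signal of 100 or more over the 6 M arrays, called bright here. Gene lists were not restricted in that way. Their counts and medians, and the shares of all 12393 genes beside them, include dim members. Of the bright probe sets, 94.4% differed by less than 0.5 on the log2 scale, and 75 differed 2-fold or more, 42 upwards and 33 downwards. The median standard error was 0.217 for bright probe sets and 0.618 for the dimmer ones. On either side of that limit the errors were close, with a median standard error of 0.256 for the 89 probe sets between 100 and 102 and of 0.259 for the 111 between 98 and 100.

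**Figure D1:**
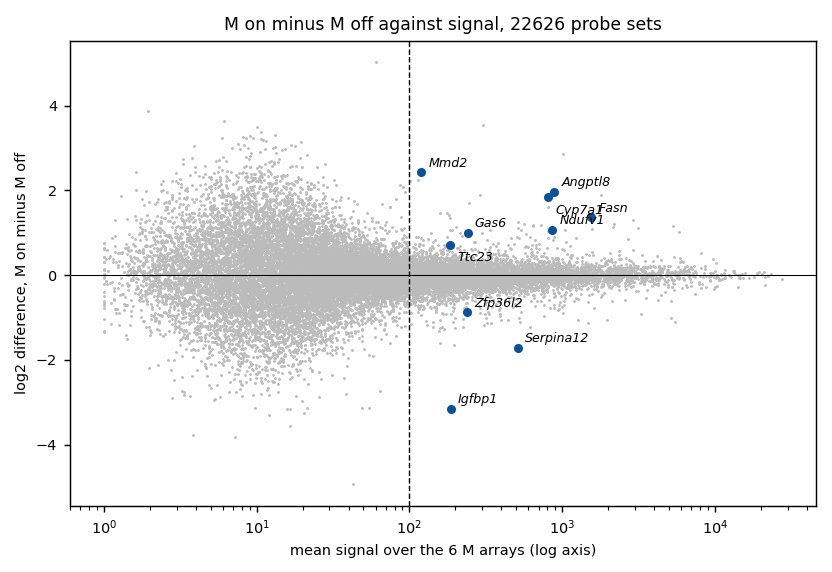
Each grey point is 1 of 22626 probe sets, with its mean signal over the 6 M arrays on a log axis and its log2 difference, M on minus M off; the dashed line marks a signal of 100. The cloud narrows to the right of the line, and the 10 labelled genes in blue are those that passed the test fitted to bright probe sets alone.

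When the model was fitted to bright probe sets alone, 11 of 7064 passed (0.156%; 8 or 0.113% higher in M on, 3 or 0.0425% lower), and in all 11 the 3 M on arrays lay wholly above or wholly below the 3 M off arrays. The genes that rose were the lipogenic enzyme gene Fasn, the bile acid enzyme gene Cyp7a1, the secreted lipid regulator Angptl8, the receptor ligand Gas6, Ndufv1 and Ttc23, and, with a reservation given next, Mmd2. Igfbp1, Serpina12 and Zfp36l2 fell. The probe set assigned to several genes is not named. Of the 7064 probe sets, 158 reached a mean of 100 only through the M on arrays and 183 only through the M off arrays. The fit to bright probe sets was an alternative, and in the fit to all probe sets the same 11 had adjusted p-values of 0.121 or more. Errors given with the 11 are standard errors of the bright fit. Of the 11, 8 had a mean of 100 or more in both M groups, while Mmd2 and the probe set of several genes reached the limit only through M on and Igfbp1 only through M off, so that their own differences had a part in letting them into the test. With bright defined by the 6 Z arrays, which have no part in the M difference, 7 of 7105 passed (0.0985%), and all 7 were among the 11: Fasn, Angptl8, Gas6, Ndufv1, Igfbp1, Serpina12 and Zfp36l2. Cyp7a1 and Ttc23 had an adjusted p of 0.0632 there, and the other 2 were under the limit and were not tested.

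Fasn, the fatty acid synthase, had signals of 842, 849.5 and 897 on the M off arrays and of 2334, 2493 and 1896 on the M on arrays. The groups were far apart and each was tight, and the log2 difference was 1.37 ± 0.19 (adjusted p = 0.0135). Angptl8 encodes a liver hormone, induced by feeding, that acts on lipoprotein lipase. Its signals were 585, 231 and 315 in M off and 1236, 1701 and 1229 in M on, a difference of 1.97 ± 0.33 (adjusted p = 0.0364). The nearest arrays of the groups were M off replicate 1 and M on replicate 3. In Z off and Z on livers, the same probe set read 218 to 450.3 and 285 to 409.

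Cyp7a1 encodes cholesterol 7-alpha-hydroxylase, which takes the first and limiting step from cholesterol to bile acids. It read 253, 431 and 358 in M off and 1444, 1643 and 743 in M on, a rise of 1.83 ± 0.32 (adjusted p = 0.0492). Its second, dimmer probe set went the same way, from 37.4 to 54.9 to 67 to 245, again without overlap. All 6 Z arrays lay above the M off arrays for the first of these, at 734 to 843 in Z off and 1078 to 2316 in Z on.

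Gas6, the ligand of the TAM receptor kinases, read 146, 161 and 171 in M off and 346, 339 and 276 in M on. It rose by 1.00 ± 0.16 (adjusted p = 0.0339). The Z arrays also separated, at 132.3 to 174.3 (off) and 211.7 to 277.4 (on), a rise of 0.66. Mmd2, a membrane protein gene of the progestin and adipoQ receptor family, read 39, 33.6 and 39.2 in M off and 215, 164 and 227 in M on, a difference of 2.43 ± 0.31. It counts as bright only through the M on arrays. Its adjusted p of 0.00923 in the bright fit rests in part on that choice, and over all probe sets it was 0.136. Mmd2 rose in the Z line too, by 1.84, with 12.7 to 35.4 (off) and 54.4 to 92.6 (on). Ttc23, a tetratricopeptide repeat gene, rose by 0.72 ± 0.13 (adjusted p = 0.0492), from 138, 158 and 124 to 223, 234 and 232, whereas Z arrays read 160.3 to 163 (off) and 159.7 to 164 (on).

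Ndufv1, a subunit gene of respiratory complex I, gave conflicting readings. The probe set that passed went from 497, 598 and 564 to 1364, 1059.5 and 1083 (1.08 ± 0.16, adjusted p = 0.029), and a second one agreed in direction (0.90 ± 0.24). The brightest of the 3, with 1445, 1176 and 1174 in M off and 1248, 1295 and 1004 in M on, overlapped between the groups and differed by -0.10 ± 0.17. On the probe set that passed it was the M off arrays that stood apart, since the Z arrays read 1141 to 1539.6 (off) and 1075 to 1230 (on).

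Among the genes that fell, Igfbp1 encodes an insulin-repressed binding protein of insulin-like growth factors. Its signals were 186, 282 and 536 in M off and 54.3, 17.3 and 42.8 in M on. The highest M on array lay below the lowest M off array, and the difference was -3.15 ± 0.50 (adjusted p = 0.0339), the largest in size of the 11. Igfbp1 was bright only through the M off arrays, and its adjusted p was 0.0484 with bright defined by the Z arrays and 0.275 over all probe sets. Serpina12 encodes vaspin, a serpin known as an adipokine and also transcribed in liver; it read 924, 956 and 495 in M off and 211, 272 and 217 in M on (-1.71 ± 0.28, adjusted p = 0.0339). Zfp36l2, whose product binds AU-rich elements of mRNAs, fell from 283, 276 and 372 to 174, 166 and 166 (-0.87 ± 0.15, adjusted p = 0.0364). Its 2 other probe sets were dim, under 100 in mean, and had differences of 0.69 and 0.32.

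The 11 calls depended on single arrays. Because their groups do not overlap, leaving out 1 M array could not change the direction of any of the 11. The number of calls in the bright fit was 7, 0 and 7 without M off replicate 1, 2 and 3, and 0, 3 and 6 without M on replicate 1, 2 and 3. Without M on replicate 2, the array of low actin signal, Mmd2 and the unnamed probe set were the 2 of the 11 still called, and both are probe sets that were bright only through M on. These fits, and the others that start from bright probe sets, were chosen after seeing the data.

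**Figure D2:**
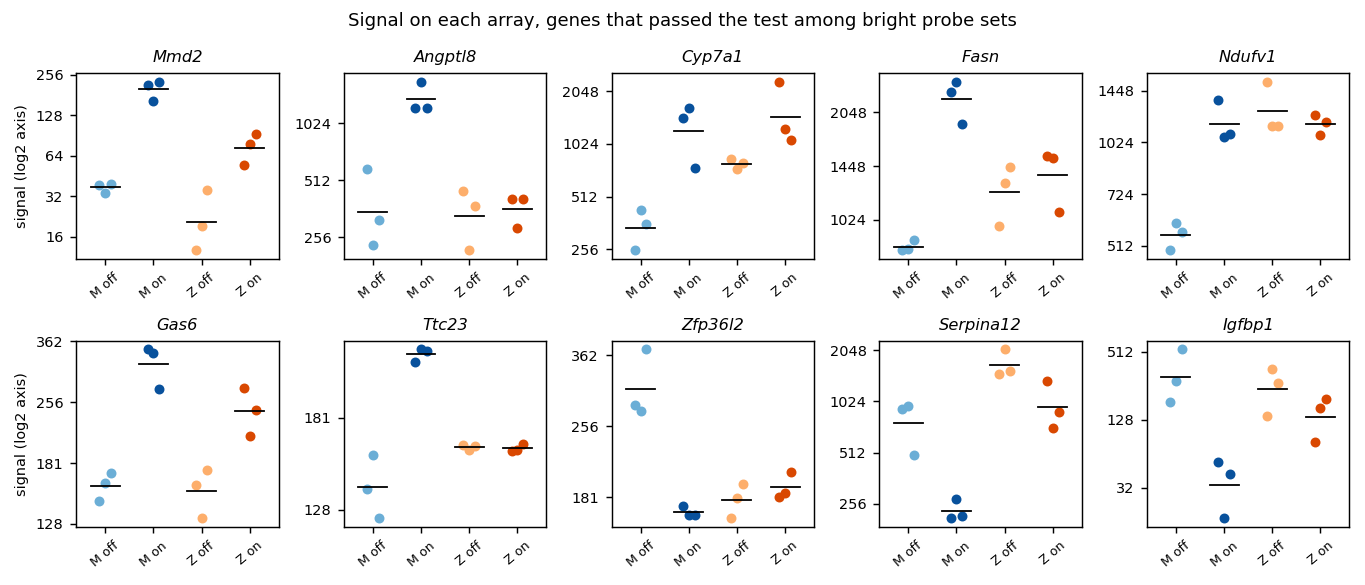
Signals on each of the 12 arrays (points, log2 axis) for the 10 named genes that passed among bright probe sets, with the geometric mean of a group as a line. M on (dark blue) and M off (light blue) do not overlap in any panel. For Ndufv1, Cyp7a1 and Zfp36l2 only the M off arrays lie outside all the others, and for Fasn and Ttc23 both M groups do.

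Most genes of cholesterol synthesis, the pathway from acetyl-CoA through mevalonate and squalene to cholesterol, read higher in M on. Of 18 measured genes 17 were higher in M on and 1 was lower (Ggps1, -0.54), with a median log2 difference of 0.67 where the median over all 12393 genes was within 0.01 of 0. At an unadjusted p under 0.05 there were 9 higher and none lower, where 2.64% of all genes were higher and 2.15% lower by that measure. The M on arrays lay wholly above the M off arrays for 13 of the 18 and below them for none, against 5.69% and 5.1% of all genes. Summed over the 18 genes, signals were 8993 to 11465 in M off and 15148 to 17952.5 in M on. They were 13366 to 14447 in Z off and 14736 to 21880 in Z on, so M off was the group apart, below all the others. No gene of the pathway passed the adjusted test by itself. Ggps1, whose product makes a side branch to geranylgeranyl groups, was also the only member under a mean of 100, with a difference of -0.035 without M off replicate 1, and 2 of the other 17 reached 100 only through the M on arrays.

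By steps of the pathway, Hmgcs1, the HMG-CoA synthase at its start, read 1807, 1696 and 2467 in M off and 4426, 4405 and 3906 in M on (1.11 ± 0.27). Idi1, the isopentenyl diphosphate isomerase, read 365, 299 and 449 and 732, 647 and 644 (0.88 ± 0.23). Sqle, the squalene epoxidase, read 172, 128 and 231 and 373, 526 and 319.6 (1.21 ± 0.35). In each of these the lowest M on array exceeded the highest M off array. The lanosterol demethylase gene Cyp51 read 179, 219 and 257 in M off and 485, 424 and 453 in M on (1.07 ± 0.19 and adjusted p = 0.0581, both in the bright fit). The methylsterol oxidase gene Msmo1 read 307, 375 and 524 and 985, 839 and 812 (1.16 ± 0.32). The other 4 with an unadjusted p under 0.05 were Fdps (1.17), Pmvk (0.85), Fdft1 (0.83) and Lss (0.78), none with overlapping groups.

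The late-pathway genes Ebp (0.19 ± 0.17) and Tm7sf2 (0.22 ± 0.20) and the mevalonate kinase gene Mvk (0.25 ± 0.27) differed by about 1 standard error. Regulators of the pathway gave smaller or opposite differences. Srebf2, which encodes the transcription factor SREBP2, differed by 0.18 ± 0.27, and Insig2, whose product helps to hold that factor back in the endoplasmic reticulum, by -0.70 ± 0.35. Among 16 genes of cholesterol uptake, efflux and control, 6 were higher and 10 lower, with a median of -0.07 and none at an unadjusted p under 0.05. The sterol exporters Abcg5 and Abcg8 differed by -0.45 ± 0.34 and -0.40 ± 0.27.

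The promoters of the sterol genes share a feature that the comparison did not use. Sequences were taken from RefSeq (mouse build GRCm38.p6) as the 250 bases before the annotated start. The letters CCAAT, the core of the NF-Y binding site that accompanies sterol elements in many of these promoters, were searched on both strands. Of the 18 genes, 15 had a window, and all 15 held at least 1 match, where 39.8% of the genes with a probe set and a window did, and 33.8% of all windows. The 15 include genes that differed little, Mvk with 5 matches, Ebp with 2 and Tm7sf2 with 1, and the lower gene Ggps1 with 3. As all 15 held a match, its presence could not be compared with the M difference within the list. Among fatty acid synthesis genes, 12 of 20 with a window had a match. The sterol element letters TCACNCCAC were in 1 of the 15, Hmgcs1, against 1.29% of genes with a probe set. The windows of 3 genes described above are printed to show how the matches lie; capitals mark CCAAT or its reverse complement ATTGG, and in Hmgcs1 also the sterol element.
Hmgcs1: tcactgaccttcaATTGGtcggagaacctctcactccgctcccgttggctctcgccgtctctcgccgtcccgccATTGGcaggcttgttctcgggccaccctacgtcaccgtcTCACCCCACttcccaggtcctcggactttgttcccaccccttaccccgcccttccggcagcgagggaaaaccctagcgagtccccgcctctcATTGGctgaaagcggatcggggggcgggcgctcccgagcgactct
Idi1: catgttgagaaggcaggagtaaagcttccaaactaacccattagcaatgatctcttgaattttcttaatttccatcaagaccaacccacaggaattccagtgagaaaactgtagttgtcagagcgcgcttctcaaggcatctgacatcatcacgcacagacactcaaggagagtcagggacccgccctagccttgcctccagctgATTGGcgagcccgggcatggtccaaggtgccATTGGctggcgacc
Msmo1: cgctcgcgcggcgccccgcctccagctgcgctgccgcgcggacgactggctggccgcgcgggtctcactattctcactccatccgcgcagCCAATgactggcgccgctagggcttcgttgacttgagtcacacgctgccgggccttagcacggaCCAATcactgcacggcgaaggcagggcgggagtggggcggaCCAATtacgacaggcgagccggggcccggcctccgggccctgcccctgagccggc
The Hmgcs1 window, chr13:119690101-119690350 on the plus strand, has 3 CCAAT matches and 1 sterol element among them. That of Idi1, chr13:8885356-8885605 on the plus strand, has 2 near its end, and that of Msmo1, chr8:64733579-64733828 on the minus strand, has 3. A match is a description of the letters and was not tested for binding.

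Fatty acid synthesis followed a similar course. Of 24 measured genes 21 were higher and 3 lower, with a median log2 difference of 0.59. At an unadjusted p under 0.05 there were 9 higher and none lower, against 2.64% and 2.15% of all genes. The groups did not overlap for 10 higher genes and 1 lower gene, against 5.69% and 5.1% of all genes. Summed signals were 29922.5 to 30101.5 in M off and 37042 to 50561 in M on, with 32889 to 33999 in Z off and 29326 to 41784 in Z on. Fasn alone passed in the bright fit. The enzymes that supply its substrates were among the 9: Acly, the ATP citrate lyase, read 749, 749.5 and 839.7 in M off and 1352, 1336 and 1301 in M on (0.77 ± 0.23), and Acss2, an acetyl-CoA synthetase, read 448, 522 and 544 and 1790.1, 777 and 782 (1.03 ± 0.31). In both the groups were separate, and for Acss2 the first M on array was well above the other 2. Aacs, the acetoacetyl-CoA synthetase, read 90.3, 94.8 and 126 and 235, 295 and 258 (1.35 ± 0.30).

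Downstream and accessory genes were higher too. Elovl6, the elongase of saturated chains, read 324, 305 and 366 in M off and 939, 909 and 519.8 in M on (1.21 ± 0.28). Thrsp, the lipogenic protein Spot 14, read 4249.6, 4581 and 2639 and 10238, 7460.3 and 5549.7 (1.01 ± 0.35), and its relative Mid1ip1 477 to 552 and 783 to 935 (0.72 ± 0.19). Pklr, the liver pyruvate kinase, differed by 0.70 ± 0.25 and Pgd, of the pentose phosphate pathway, by 0.59 ± 0.23. Scd1, the desaturase and one of the brightest of the list, read 6393, 5775 and 7283 in M off and 13382, 7484 and 8055 in M on, a difference of 0.53 ± 0.31 in which the lowest M on array was just above the highest M off array; without M on replicate 1 it was 0.27. The transcription factor genes of the pathway showed no such difference: Srebf1 differed by 0.03 ± 0.25 and Mlxipl, which encodes ChREBP, by -0.18 ± 0.28. Elovl3, an elongase gene, went the other way, from 606 to 1178 to 374 to 565 (-0.72 ± 0.43).

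The Fasn window is printed as that of the lipogenic gene that passed the test; capitals mark CCAAT and its reverse complement, which overlap once within the run of 8 capitals.
Fasn: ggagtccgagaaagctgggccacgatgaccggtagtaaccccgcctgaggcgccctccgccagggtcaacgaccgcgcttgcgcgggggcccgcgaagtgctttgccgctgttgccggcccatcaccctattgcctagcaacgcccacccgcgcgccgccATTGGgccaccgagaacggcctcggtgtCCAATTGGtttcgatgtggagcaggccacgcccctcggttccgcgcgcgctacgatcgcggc
It lies at chr11:120824548-120824797 on the minus strand and has 3 matches, with the overlapping pair counted as 2.

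**Figure D3:**
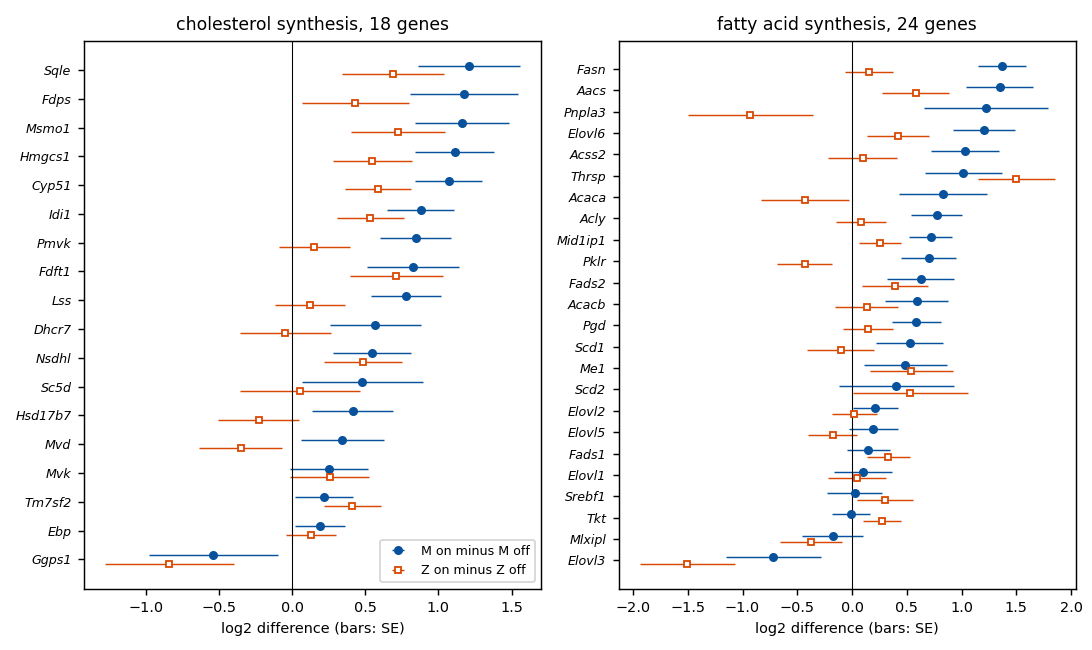
Log2 differences with standard errors for the 18 cholesterol synthesis genes and the 24 fatty acid synthesis genes, M on minus M off (filled circles) and Z on minus Z off (open squares). In the M line 17 of 18 and 21 of 24 lie right of 0, with medians of 0.67 and 0.59; in the Z line the medians are 0.33 and 0.14.

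Lipid genes beyond synthesis were nearly level. Among 28 genes of triglyceride synthesis and lipid droplets, 14 were higher and 14 lower (median 0.01), and among 33 of fatty acid oxidation and ketogenesis 13 were higher and 20 lower (median -0.05, 1 at an unadjusted p under 0.05). Plin2, the main lipid droplet coat protein of hepatocytes, read 2020.3, 1857 and 2107 in M off and 2511, 2527 and 2349 in M on (0.30 ± 0.18), a narrow but complete separation. Lpin2, a phosphatidate phosphatase gene, read 1094, 1302 and 1219 and 756, 691 and 645 (-0.79 ± 0.27).

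Genes that respond to insulin and fasting leaned downwards. Of 27 measured, 9 were higher and 18 lower (median -0.25), with 2 lower and 1 higher at an unadjusted p under 0.05 (2.15% and 2.64% of all genes) and 7 wholly lower and 1 wholly higher in M on (5.1% and 5.69%). The Z line had the same median over the 27 genes, -0.25. Among the 16 bright members, however, the medians were -0.22 in the M line and -0.04 in the Z line. Besides Igfbp1, the 7 included Angptl4 (-0.63 ± 0.33), Cited2 (-0.50 ± 0.24), Txnip (-0.41 ± 0.18) and Foxo1 (-0.31 ± 0.21), all with modest differences. The gene wholly higher was G0s2, an inhibitor of adipose triglyceride lipase, with 605, 258 and 445 in M off and 1680.3, 681 and 698 in M on (1.18 ± 0.43). Gluconeogenesis did not share this: 9 of 15 genes were higher and 6 lower (median 0.12), Pck1 differed by 0.22 ± 0.38 and G6pc by 0.27 ± 0.32, neither beyond its error. The glucose transporter gene Slc2a2 read 1965, 1903 and 2066 in M off and 3036, 2654 and 2558 in M on (0.47 ± 0.17). Ppp1r3c, a glycogen-targeting phosphatase subunit, read 736 to 978 and 437 to 706 (-0.61 ± 0.29).

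The Igfbp1 window is shown because Igfbp1 had the largest decrease among bright genes that passed and its insulin response sequences are a textbook FoxO site. Capitals mark CAAAACA and CAAAATA, searched on both strands.
Igfbp1: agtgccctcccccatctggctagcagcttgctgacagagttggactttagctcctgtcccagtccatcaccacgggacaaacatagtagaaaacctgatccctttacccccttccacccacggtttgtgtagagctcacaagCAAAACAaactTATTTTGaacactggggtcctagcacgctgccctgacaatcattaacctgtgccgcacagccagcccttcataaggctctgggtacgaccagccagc
It lies at chr11:7197537-7197786 on the plus strand and has 2 matches, CAAAACA and, a few bases on, the reverse complement of CAAAATA. Of the genes with a probe set and a window, 7.55% had at least 1.

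In bile acid synthesis and control the rise of Cyp7a1 was not shared. Of 24 genes, 8 were higher and 16 lower (median -0.09), with 2 lower and 1 higher at an unadjusted p under 0.05 (2.15% and 2.64% of all genes) and 6 wholly lower against 1 wholly higher (5.1% and 5.69%). Cyp8b1, the sterol 12-alpha-hydroxylase that follows Cyp7a1, read 338, 489 and 527 in M off and 1349, 431 and 826 in M on (0.82 ± 0.38) with overlap. Cyp7b1, of the alternative pathway, read 1368, 1412 and 793 and 659, 464 and 895 (-0.83 ± 0.31), also with overlap. Nr0b2, which encodes SHP, the repressor of Cyp7a1, read 553, 467 and 476 in M off and 422, 426 and 199 in M on (-0.59 ± 0.40), wholly lower but with a large error. Baat, which conjugates bile acids, differed by -0.37 ± 0.18, and Slco1a4, an uptake carrier, by -0.76 ± 0.32.

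Heme synthesis was marked by Alas1, its rate-limiting enzyme in liver. Alas1 read 928, 604 and 778 in M off and 3469, 2304 and 2728 in M on. In the bright fit the difference was 1.88 ± 0.34 and missed the threshold (adjusted p = 0.0581). Z livers showed the same separation, 455 to 909 off and 1275 to 3449 on. The other 28 genes of heme and iron were mostly level (17 of 29 higher in all, median 0.05). Hamp2, a hepcidin gene, read 3187, 2907 and 3326 in M off and 9977, 8581 and 4017 in M on (1.16 ± 0.42), whereas its neighbour Hamp differed by 0.19 ± 0.30; the pair are close in sequence and may share signal. Hmox2, a heme oxygenase, differed by -0.37 ± 0.16.

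Cyp2c37 and Cyp2c50, of the cytochrome P450 2c family, followed single arrays more than groups. Cyp2c37 read 28.7, 21.5 and 28.5 in M off, 829, 39.6 and 869 in M on, 13, 772 and 10.7 in Z off and 33.3, 49.9 and 17.4 in Z on. The signals of 2 M on arrays and 1 Z off array were thus more than 10-fold above the remaining 9, and the standard error of the M difference was as large as 1.63 (3.55). Cyp2c50 had high signals on the same 3 arrays, with 4258, 1064 and 4294 in M on and 853, 3864 and 1066 in Z off. Cyp2c55 read 122, 79.5 and 138 in M off and 424, 228 and 472 in M on (1.70 ± 0.48), and 93.2, 288 and 85.1 in Z off. The same 3 arrays were its highest, but M on replicate 2, at 228, also lay above all M off arrays. These genes are close paralogs and cross-hybridisation was not tested. Over the 29 measured genes of P450 families 1 to 3 the median was -0.08 and 9 were higher. Aldh1a7, an aldehyde dehydrogenase, read 1913, 1539 and 2262 in M off and 3924, 2913 and 3482 in M on (0.86 ± 0.20).

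**Figure D4:**
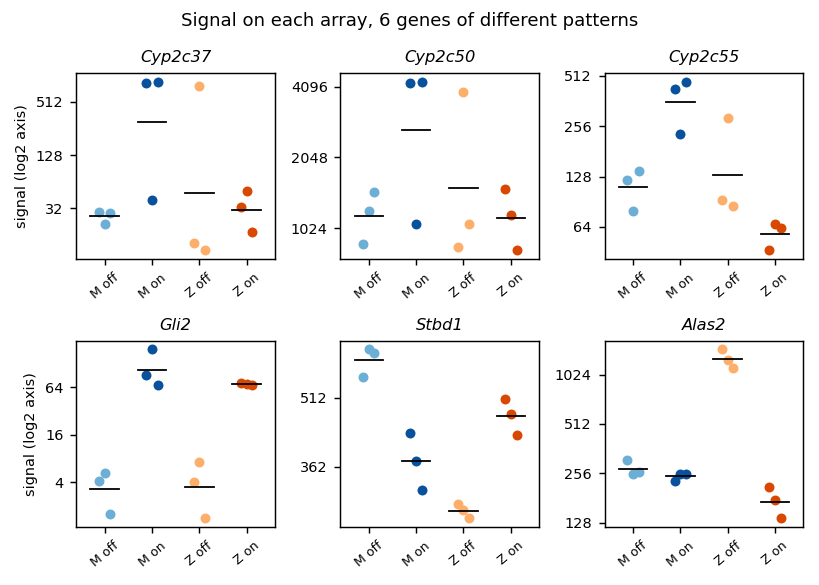
Signals on each array (log2 axis, line at the geometric mean) for 6 genes. Cyp2c37, Cyp2c50 and Cyp2c55 are high on M on replicates 1 and 3 and Z off replicate 2; Gli2 is low on all 6 off arrays and high on all 6 on arrays; Stbd1 and Alas2 differ between the lines.

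Genes of the circadian clock are given because the labels do not state the hour at which livers were taken. Of 21 genes 10 were higher and 11 lower (median -0.23), with 3 wholly higher and 4 wholly lower, where 5.69% and 5.1% of all genes were, and 3 higher and 2 lower at an unadjusted p under 0.05 (2.64% and 2.15%). Only 10 of the 21 were bright, and of these 8 were higher and 2 lower (median 0.19), so the sign of the median changed. Noct, which encodes the deadenylase-like nocturnin, read 90.9, 67.1 and 96.2 in M off and 240.1, 210.2 and 249 in M on (1.47 ± 0.56), Bhlhe40 read 287 to 414 and 704 to 759.9 (1.07 ± 0.42), and Per2 15.4 to 45.5 and 70.2 to 92.1 (1.34 ± 0.56). Arntl, Cry2 and Nfil3 were wholly lower in M on (-1.74, -1.40 and -0.99). Arntl and Cry2 were dim, with mean signals of 25.6 and 70.0 over the M arrays. Dbp, a strongly rhythmic output gene, read 839, 1104 and 905 in M off and 1556, 1297 and 1094 in M on (0.47 ± 0.98), and 107, 51.1 and 23.8 in Z off and 1365, 1385 and 80.1 in Z on. Its signal thus differed far more among the Z arrays than among the M arrays. Many lipid and bile acid genes, Cyp7a1 and Alas1 among them, are known to be rhythmic, and the part of the hour of collection in their differences was not tested.

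Most chaperone genes of the secretory pathway were close to level with the M form on, and degradation genes leaned slightly lower. Of 31 chaperone and oxidoreductase genes of the endoplasmic reticulum, 12 were higher and 19 lower (median -0.07), and Hspa5, which encodes BiP, read 4629, 4249.5 and 4247 in M off and 5090.3, 3709 and 4059.8 in M on (-0.04 ± 0.19). Calnexin (Canx) read 1427, 1396 and 1302 and 973, 1065 and 1188 (-0.36 ± 0.16), separate but close. Selenok, which takes part in degradation of misfolded proteins, read 587 to 636 and 779.8 to 877 (0.44 ± 0.16). Of 25 degradation genes 6 were higher and 19 lower (median -0.12), with 4 wholly lower and 1 wholly higher (5.1% and 5.69% of all genes) and 1 lower at an unadjusted p under 0.05 (2.15%). The sensors and transport genes of the unfolded protein response had a median of -0.01 over 35 genes. Xbp1 differed by 0.09 ± 0.19, Herpud1 by -0.52 ± 0.30 and Bcap31 by 0.15 ± 0.18.

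Stress and degradation genes gave few exceptions. In the integrated stress response 22 of 39 genes were higher and 17 lower (median 0.03). Ddit3, which encodes CHOP and is dim here, read 85.1, 60.9 and 47.3 in M off and 92.4, 147 and 107 in M on (0.86 ± 0.28), and Atf4 read 535, 549 and 494 and 861, 646 and 658 (0.44 ± 0.21). Medians were 0.02 for 35 proteasome genes, -0.01 for 36 of autophagy and lysosome, -0.01 for 25 cytosolic chaperones and 0.01 for 71 nuclear genes of the respiratory chain. The autophagy genes Sqstm1 and Map1lc3b differed by 0.03 ± 0.16 and -0.51 ± 0.24.

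In the NF-kappaB group, the inhibitor gene Nfkbia had 4 probe sets. The brightest read 1483, 1359 and 1439.6 in M off and 780.5, 961 and 1081 in M on (-0.61 ± 0.18), and the other 3 differed by -0.19, -0.46 and -0.23. Z off livers, at 902 to 1135, were near M on rather than M off. The chemokine gene Cxcl1 read 80.4, 86.1 and 227 in M off and 435, 598 and 314 in M on (1.90 ± 0.48), and 51 to 62.8 and 379 to 988 in Z off and Z on. The 29 genes of the group together had 14 higher and 15 lower, and the 33 acute phase genes a median of -0.01.

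Genes of the extracellular matrix and of stellate cells leaned lower in M on. Of 45 genes 32 were lower and 13 higher (median -0.19). At an unadjusted p under 0.05, 9 were lower and none higher (2.15% and 2.64% of all genes). By arrays, 10 were wholly lower and none wholly higher (5.1% and 5.69%). Decorin (Dcn), the brightest of the 9, read 754, 738 and 562 in M off and 461, 204 and 409 in M on (-1.01 ± 0.33). Nidogen (Nid1) read 67.9 to 102 and 31.2 to 47.6 (-1.02 ± 0.26), and the smooth muscle genes Tagln and Acta2 differed by -1.35 ± 0.34 and -0.76 ± 0.27. Collagens were less clear, Col1a2 at -0.39 ± 0.22 and Col3a1 at -0.37 ± 0.30.

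Markers of other cells are set beside this, and Dcn, Acta2 and the collagen genes are on both lists. Over 14 measured markers of stellate cells and fibroblasts, 10 were lower and 4 higher (median -0.34), and their summed signal was 2613 to 2970 in M off and 1743 to 2347 in M on, with no marker listed at 0. Over 16 of sinusoidal endothelium, 13 were lower (median -0.25; summed signal 1675 to 1891 in M off, 1519.6 to 1647 in M on). Kupffer cell markers overlapped, at 3494 to 3962 and 3441 to 4770.1 over 15 genes. In bulk tissue fewer cells of a type and less RNA per cell cannot be told apart. Stellate markers were lower in the Z line also, at 2482 to 2821 in Z off and 1577 to 2031 in Z on.

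Skeletal muscle markers were higher on some M off arrays. Their summed signal over 13 genes was 476.5 and 888 on M off replicates 1 and 3, but 146 on replicate 2, against 129 to 169.5 in M on and 136 to 227 on the Z arrays. Myh1 read 58.4, 10.5 and 179.9 in M off and 4.9, 2.6 and 0.3 in M on, Ckm 82.1, 42.3 and 146 and 9.2, 27.2 and 38.4, and Tnnt3 46.4, 10.4 and 57.3 and 1.7, 9.7 and 2.5. Of the 13, 10 were lower in M on, 4 of them at an unadjusted p under 0.05, where 2.15% of all genes were lower. The part of muscle RNA in other differences was not tested.

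Cell cycle and replication genes leaned higher, mostly at dim signals. Of 54 genes 36 were higher and 18 lower (median 0.23), with 6 higher and none lower at an unadjusted p under 0.05 (2.64% and 2.15% of all genes) and 8 wholly higher against none wholly lower (5.69% and 5.1%). Only 10 of the 54 were bright, and of these 5 were higher and 5 lower. Cyclin D1 (Ccnd1) read 208, 134 and 93.2 in M off and 197, 330.2 and 325 in M on (1.01 ± 0.35), with overlap through the first array of each group. The replication helicase gene Mcm5 read 14.1, 6.9 and 9.2 and 29.3, 20.1 and 41.4 (1.59 ± 0.40), and Prc1, of the mitotic spindle, 10.7, 1 and 10.6 and 25.8, 36.2 and 44 (2.83 ± 0.78). The mitotic activator gene Cdc20 differed by 1.14 ± 0.46 and the ribonucleotide reductase gene Rrm2 by 0.64 ± 0.26. In Z on against Z off the median of the same 54 genes was -0.21.

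The remaining bright genes of smallest p are given by values, since none passed. Among those higher in M on were Id3, a helix-loop-helix inhibitor (287, 349.7 and 261 in M off, 754, 522 and 912 in M on), the RNA-binding protein gene Rbm15 (68.7 to 102 and 148 to 156) and Vps37c, of the endosomal sorting machinery (69.7 to 84.7 and 114 to 169). Among those lower were St3gal5, the GM3 ganglioside synthase (439.9, 474 and 404 in M off, 204, 236 and 165 in M on), and Stbd1, a glycogen-binding protein (569.5, 653 and 643 and 428, 372 and 323). Other lower genes had differences of -0.80 (Hnrnpu), -0.67 (Hopx), -0.90 (Slc17a1, a phosphate and anion carrier), -0.67 (Crebrf), -0.93 (Dag1, dystroglycan), -1.16 (Ccng2, cyclin G2), -0.78 (Inppl1, the lipid phosphatase SHIP2), -0.75 (Fgf1) and -0.62 (Grb7). All were chosen as having M groups that do not overlap, so separation of the groups is no result for them.

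Among dim probe sets the smallest p-values belonged to Nfkbie, an inhibitor of NF-kappaB (5.2, 3 and 2.4 in M off, 29.6, 31.4 and 20 in M on; adjusted p = 0.0724), and to Gli2, a transcription factor of Hedgehog signalling. Gli2 read 4.1, 5.2 and 1.6 in M off and 92.5, 192 and 67.3 in M on (adjusted p = 0.0899). The Z difference did not enter the choice, but the spread of the Z arrays did, since the fit pools the spread of all groups. The Z line went the same way, with 4, 7.2 and 1.4 off and 72.9, 69.9 and 68.3 on. A second Gli2 probe set read 1.6 to 2.7 in M off and 5 to 36.4 in M on. Scel (2.87) and Myo1c (2.38) were the other dim genes named as higher, and Apobec2 (-2.51), Msi2 (-2.54), Peg12 (-3.77) and Cntn4 (-3.82) those named as lower. Rgs16, a regulator of G protein signalling, had 3 dim probe sets with differences of -1.09 ± 1.01, -1.22 and -2.85. The groups of the first overlapped, and its difference was -0.35 without M off replicate 1 and -2.18 without M off replicate 2. Tgfb1 differed by -0.80 ± 0.83.

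Whether the M response differs from the Z response was tested by the difference of the 2 changes, which share no array. No probe set of 22626 passed (limma; 0% called, 1172 or 5.18% at an unadjusted p under 0.05), and 2 of 7083 passed when the fit was limited to bright probe sets over all 12 arrays (0.0282%). One was Stbd1, lower in M on and higher in Z on, at 279.7 to 300 in Z off and 425 to 509 in Z on. Its difference of changes in the bright fit was -1.42 ± 0.20 (adjusted p = 0.0306). The other was Alas2, the erythroid counterpart of Alas1, level in M at 254 to 307 and 231 to 254 but 1119 to 1456 in Z off and 136 to 211 in Z on. Its difference of changes in the bright fit was 2.73 ± 0.24 (adjusted p = 0.000359). Of the 15 named bright genes higher in M on, 11 were also higher in Z on, and of the 15 lower, 8 were also lower. Among all 4691 bright genes, whatever their M difference, 2371 were higher in Z on. For Fasn the change in Z was 0.15 and the difference of the changes 1.21 ± 0.31 in the fit to all probe sets (adjusted p = 0.218 among bright probe sets), and for Angptl8 0.12 and 1.85 ± 0.54 (0.282). Neither is shown to be particular to the M form.

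**Figure D5:**
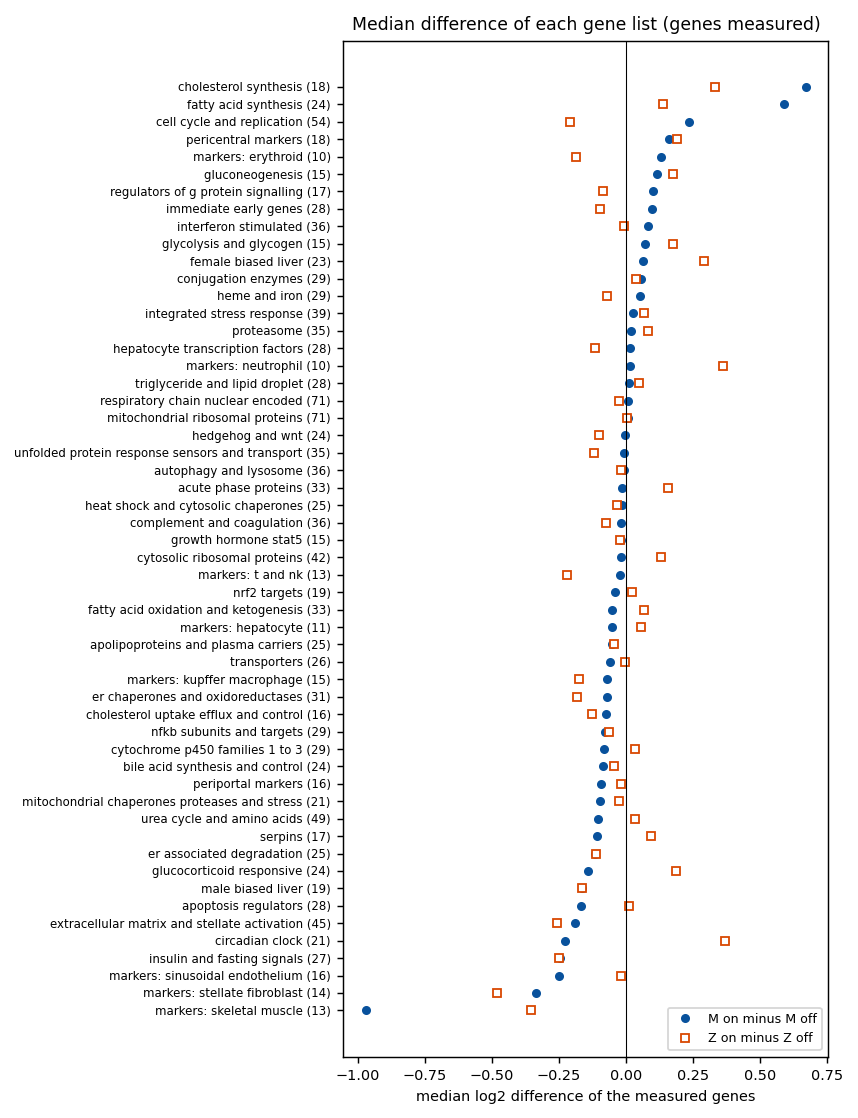
Median log2 difference of each gene list with 10 or more measured genes (number in brackets), M on minus M off (filled circles) and Z on minus Z off (open squares). Cholesterol and fatty acid synthesis stand at 0.67 and 0.59 in the M line, skeletal muscle markers at -0.97, and most lists lie near 0.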

How the data were processed

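Liver RNA (TRIZOL, then RNeasy columns, per the labels' protocols) was read on Affymetrix mouse arrays of a single colour after biotin labelling. What the authors deposited is a linear intensity for each probe set on each array. The submitters' processing notes name RMA; the software and its settings are otherwise not given in the sources used here. The intensities do not look like RMA output: they are not logged, reach 0, and share 1 trimmed mean (150.07 to 150.08 without the extreme 2% at each end) but different medians, as signals scaled array by array do. On such a scale dim signals vary widely after log2, and 28.4% of values lay below 16. The number of arrays limits the precision.

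Of 22690 probe sets, 64 array controls were left out. Of the 22626 others, 20380 had 1 gene symbol in the platform annotation (GRCm38.p6 RefSeq changed 0 symbols), 691 several and 1555 none. After 1 value of 0 was set to 0.1, log2 signals of all 12 arrays were fitted with limma (version 3.58.1, R 4.3.3; lmFit, eBayes, 1 mean per group, two-sided), with Benjamini-Hochberg adjustment and a call at an adjusted p under 0.05. Standard errors are of that fit unless stated. The fit was tested on simulated data. Lists use the brightest probe set of a gene over the 6 M arrays; 1501 of 1726 entries matched, and no list was tested. Named genes are the 15 bright genes with groups that do not overlap and the smallest p in each direction, 4 dim ones likewise, list members, and a fixed set (Alb, Bcap31, Ccnd1, Ddit3, Hspa5, Map1lc3b, Nfkbia, Rgs16, Sqstm1, Tgfb1, Xbp1 and mouse Serpina1 genes). The genes, lists and members were chosen with earlier results of these data known. Alternatives were an offset or floor of 16, other scalings and variance models, fewer probe sets or arrays, a replicate block, and leaving out each array. Sequences are RefSeq's, of build GRCm38.p6.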

Additional observations from a re-analysis of the deposited data

Results flagged for a closer look

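For 2 genes the change from off to on differed between the M and the Z line in the fit to bright probe sets, by the test of the difference itself (limma). Stbd1, which encodes a glycogen-binding protein, read 569.5, 653 and 643 in M off and 428, 372 and 323 in M on, but 300, 291 and 279.7 in Z off and 509, 471 and 425 in Z on. Its M change minus its Z change was -1.42 on the log2 scale (adjusted p = 0.0306 among bright probe sets, 0.23 over all). Alas2, the erythroid 5-aminolevulinate synthase, had an M change minus Z change of 2.73 (adjusted p = 0.000359, and 0.0624 over all). Its signal was 1456, 1259 and 1119 in Z off against 307, 254 and 262 in M off and 231, 252 and 254 in M on, so the Z off arrays were the ones apart. Erythroid markers as a list, 10 genes that include Alas2, had summed signals of 1668 to 2094 in Z off and of 656.7 to 804 in M off, 723 to 749 in M on and 603 to 681 in Z on; their part in the Alas2 difference was not tested.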

How the results depend on the processing

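Between M on and M off 0 probe sets passed in the fit to all arrays and probe sets, and the number stayed at 0 with signals under 16 set to 16, with only the 6 M arrays, and with the replicate block. It was 3 after adding 16 to every signal, 2 with quantile normalization, 5 with median centring, 8 with an intensity trend and robust variances, 11 with bright probe sets alone, 4 above the median signal, 1 with array weights, 1 with 1 probe set per gene, 3 with the mean of a gene's probe sets, and 0 to 2 when 1 array was left out. The 11 calls among bright probe sets became 13 with the replicate block (9 of the 11), 13 with quantile normalization, 9 with median centring, 14 with trended variances, 8 with only the M arrays (3 of the 11), 7 with bright defined by the Z arrays (7 of the 11) and 0 to 7 without 1 array. The difference of the M and Z changes was called for 0 probe sets in the fit to all, with quantile normalization and with the block, for 1 with the offset, the floor, median centring, array weights or above the median signal, for 2 with trended variances, with bright probe sets or with 1 probe set per gene, for 3 with gene means, and for 0 to 2 without 1 array. The causes of these changes were not tested. Same-numbered arrays of the 2 M groups had deviations that correlated between -0.064 and 0.206 (median 0.094), and differently numbered ones between -0.199 and 0.075 (median -0.0025). The same-numbered median was the higher, but the ranges overlap, and the numbers were not taken to pair the mice. Of 2496 values for the named genes under the alternatives, 18 changed sign (beside 1 of a difference of changes). With gene means these were Zfp36l2 (0.046, and 0.032 for the difference of changes), Xbp1 (-0.013), Bcap31 (-0.070), Srebf2 (-0.31) and Rtp4 (0.049). Leaving out 1 array at a time moved the difference by more than 1.5 times for 33 of 134 named probe sets, and gave ranges across 0 for Alb (-0.30 to 0.11), Sqstm1 (-0.045 to 0.083), Serpina1b (-0.18 to 0.22), Srebf2 (-0.010 to 0.31), Srebf1 (-0.10 to 0.16), Mlxipl (-0.41 to 0.11), Tgfb1 (-1.49 to 0.30), Hspa5 (-0.17 to 0.056) and Xbp1 (-0.013 to 0.23). The list medians stayed between 0.57 and 0.81 for cholesterol synthesis, 0.42 and 0.63 for fatty acid synthesis and -0.30 and -0.13 for the matrix, while that of cell cycle genes ranged from -0.01 to 0.37 and that of muscle markers from -1.91 to -0.37. Dim signals limit the lists of cell cycle, circadian clock, matrix, NF-kappaB, lymphocyte marker and muscle marker genes, most of whose members lay under a mean of 100.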

Other observations

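Gene groups outside lipid metabolism held a few members with separate M groups. Of 36 interferon-stimulated genes 22 were higher in M on (median 0.08), with 3 higher and 1 lower at an unadjusted p under 0.05 (all genes: 2.64% and 2.15%). The GTPase genes Igtp (659.7, 529 and 496 in M off, 774, 988 and 807 in M on) and Irgm2 (109 to 152 and 182 to 194) were among the 3, and Rtp4 (178, 169.9 and 178 in M off, 103, 116 and 127 in M on) was the 1. Among 26 transporter genes the organic anion carrier gene Slc22a7 read 1222, 438 and 494 in M off and 1438, 1392 and 1234 in M on (1.07 ± 0.35), with the first M off array just under the M on range. Of 49 urea cycle and amino acid genes 32 were lower (median -0.10). The lysine catabolism gene Aass read 1125, 1168 and 1151 in M off and 708, 868 and 891 in M on, and Dbt, of branched-chain amino acid breakdown, 280.2, 322 and 268 and 169, 74 and 224. A pair of glucocorticoid-responsive genes went opposite ways: Sgk1 read 68.6, 80.5 and 79.9 in M off and 186, 127 and 119.7 in M on, and Tsc22d3 410.5, 523 and 340.2 and 231, 259.5 and 197. Bcl6, a transcriptional repressor of growth hormone-responsive genes, read 276, 204 and 186 in M off and 72.6, 107 and 102 in M on, and 71, 162 and 77.4 and 274, 316 and 113 in Z off and Z on.

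The Z arrays show which of the M groups lay apart. Of 604 bright genes with M groups that do not overlap, the M off arrays alone lay outside the other 9 arrays in 74 (12.3%), the M on arrays alone in 81 (13.4%), both in 4 and neither in 445. Among the 30 named bright genes the counts were 7, 12, 2 and 9. M off was the group apart for Ndufv1, Cyp7a1, Zfp36l2, Nfkbia, Stbd1, Vps37c and St3gal5, and M on for Igfbp1, Serpina12, Angptl8, Mmd2, Aacs, Elovl6, Aldh1a7, Rbm15, Dag1, Inppl1, Fgf1 and Hopx. For Fasn and Ttc23 the Z arrays lay between the M groups. An M group that lay apart does not mean that the Z line was level. Mmd2, for example, rose in Z as well, by 1.84.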
